A study of Mus musculus with 9 samples.

Results

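The 38 genes described here encode the machinery of the lysosome, and all 38 are listed among the 55536 genes of the deposited tables and were among the 16213 abundant enough to be tested. They were named from their role in the lysosome, with earlier results of these data known, and their Ensembl identifiers were matched to GENCODE M21 symbols. There are 14 genes of the vacuolar proton pump (V-ATPase), 10 cathepsins, 4 membrane proteins, 8 enzymes and activators that break down sugars and lipids, and 2 transcription factors. Of the cathepsins, 5 (Ctsc, Ctsh, Ctsk, Ctss and Ctsz) were set apart as macrophage-enriched proteases, and the other 31 genes without the transcription factors were treated as general lysosomal genes.

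The libraries came from mouse ovaries and were made from polyadenylated RNA. The 3 tumour libraries were labelled as granulosa cell tumours and carried 1 mutated and 1 intact copy of the forkhead gene Foxl2 (FOXL2 WT/C134W). The 3 hyperplasia libraries had the same genotype, and the 3 wild-type libraries carried FOXL2 WT/WT. The labels used here name no strain, age or separate animals, so p-values measure the spread between these libraries, and hyperplasia library 3 and tumour library 3 share the stem of their titles. Those 2 libraries had the highest correlation across genes of any pair (0.977), and whether they come from separate animals is not stated. Hyperplasia library 2 and wild-type library 2, which differ in genotype, were nearly as close (0.974).

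Lysosomes are acidic organelles in which proteases, glycosidases and lipases break down proteins, sugars and lipids. The V-ATPase pumps protons into them with a membrane sector, V0, that carries the protons and a peripheral sector, V1, that splits ATP. TFEB and MITF are transcription factors known to bind the CLEAR motif, an extended E-box, in promoters of lysosomal genes, and in the ovary lysosomes are active in steroid-producing luteal cells and in the macrophages that clear dying follicles and corpora lutea.

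The E-box centre of the CLEAR motif was looked for in the RefSeq promoter windows of 300 bases (250 before and 50 after the start, GRCm38.p6), which were found for 32 of the 38 genes. Of the 7 genes with the 8-letter form TCACGTGA, 5 windows are shown as examples from the pump, the proteases and the channel, and the window of Ctss, chosen after its values were seen, is shown as the gene with the lowest fold change. Capitals mark the E-box CACGTG with a T before it or an A after it.

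Atp6v1a (chr16:44139210-44139509, minus strand): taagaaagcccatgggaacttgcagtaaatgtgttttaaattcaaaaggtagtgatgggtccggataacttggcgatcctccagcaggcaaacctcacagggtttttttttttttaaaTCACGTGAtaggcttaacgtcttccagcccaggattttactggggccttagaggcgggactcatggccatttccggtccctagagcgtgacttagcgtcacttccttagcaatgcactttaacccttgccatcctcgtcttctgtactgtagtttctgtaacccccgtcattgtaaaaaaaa
Atp6v0d1 (chr8:105566015-105566314, minus strand): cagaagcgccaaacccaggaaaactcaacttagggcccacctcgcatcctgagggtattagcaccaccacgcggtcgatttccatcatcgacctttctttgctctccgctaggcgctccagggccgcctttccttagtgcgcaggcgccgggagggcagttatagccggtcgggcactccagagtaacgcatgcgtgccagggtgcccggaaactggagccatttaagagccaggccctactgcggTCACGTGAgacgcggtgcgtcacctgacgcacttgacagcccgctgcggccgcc
Ctsd (chr7:142387778-142388077, minus strand): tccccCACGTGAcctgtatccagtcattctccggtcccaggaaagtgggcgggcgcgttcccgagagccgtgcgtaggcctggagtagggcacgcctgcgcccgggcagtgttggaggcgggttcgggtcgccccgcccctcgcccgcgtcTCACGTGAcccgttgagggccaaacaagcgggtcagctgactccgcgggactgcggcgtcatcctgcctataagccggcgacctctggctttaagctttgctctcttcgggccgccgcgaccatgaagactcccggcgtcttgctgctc
Mcoln1 (chr8:3500269-3500568, plus strand): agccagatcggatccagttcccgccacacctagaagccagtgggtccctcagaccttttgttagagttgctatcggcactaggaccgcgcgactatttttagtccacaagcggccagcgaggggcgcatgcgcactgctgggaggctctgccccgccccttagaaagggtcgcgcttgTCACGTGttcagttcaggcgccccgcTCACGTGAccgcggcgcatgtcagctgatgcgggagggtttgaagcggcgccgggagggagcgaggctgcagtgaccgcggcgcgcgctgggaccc
Ctsa (chr2:164833523-164833822, plus strand): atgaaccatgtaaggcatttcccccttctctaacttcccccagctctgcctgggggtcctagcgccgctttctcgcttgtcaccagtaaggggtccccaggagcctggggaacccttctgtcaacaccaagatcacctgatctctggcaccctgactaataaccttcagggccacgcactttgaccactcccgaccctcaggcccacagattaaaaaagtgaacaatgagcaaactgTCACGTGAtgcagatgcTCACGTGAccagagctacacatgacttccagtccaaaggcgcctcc
Ctss (chr3:95526536-95526835, plus strand): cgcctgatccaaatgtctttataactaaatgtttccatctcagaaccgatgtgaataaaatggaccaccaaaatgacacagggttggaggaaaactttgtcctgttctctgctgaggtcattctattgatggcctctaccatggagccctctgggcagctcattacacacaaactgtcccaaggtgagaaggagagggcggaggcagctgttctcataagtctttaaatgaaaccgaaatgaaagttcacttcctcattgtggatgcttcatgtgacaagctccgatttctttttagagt

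The 6-letter core CACGTG reads the same on both strands, as does the 8-letter form, and both strands were searched for the 7-letter forms TCACGTG and CACGTGA. Each longer form overlaps the shorter ones, and the bases that flank the 8-letter form in the full motif were not searched for. The 8-letter form was found for 7 of the 32 genes (21.9%), namely Atp6v0d1, Atp6v0e, Atp6v1a, Ctsa, Ctsd, Gla and Mcoln1, and for 2% of the 11706 tested genes with a window. A 7-letter form was found for 10 of the 32 genes (31.2%) and for 6.57% of all tested genes, and the core for 37.5% and 11.2%. None of the 4 macrophage-enriched proteases with a window held the core in it. A match is a description of these letters, and binding was not measured. In tumours against wild type the median log2 fold change was -0.07 over the 10 genes with a 7-letter form and 0.08 over the 22 without.

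**Figure D1:**
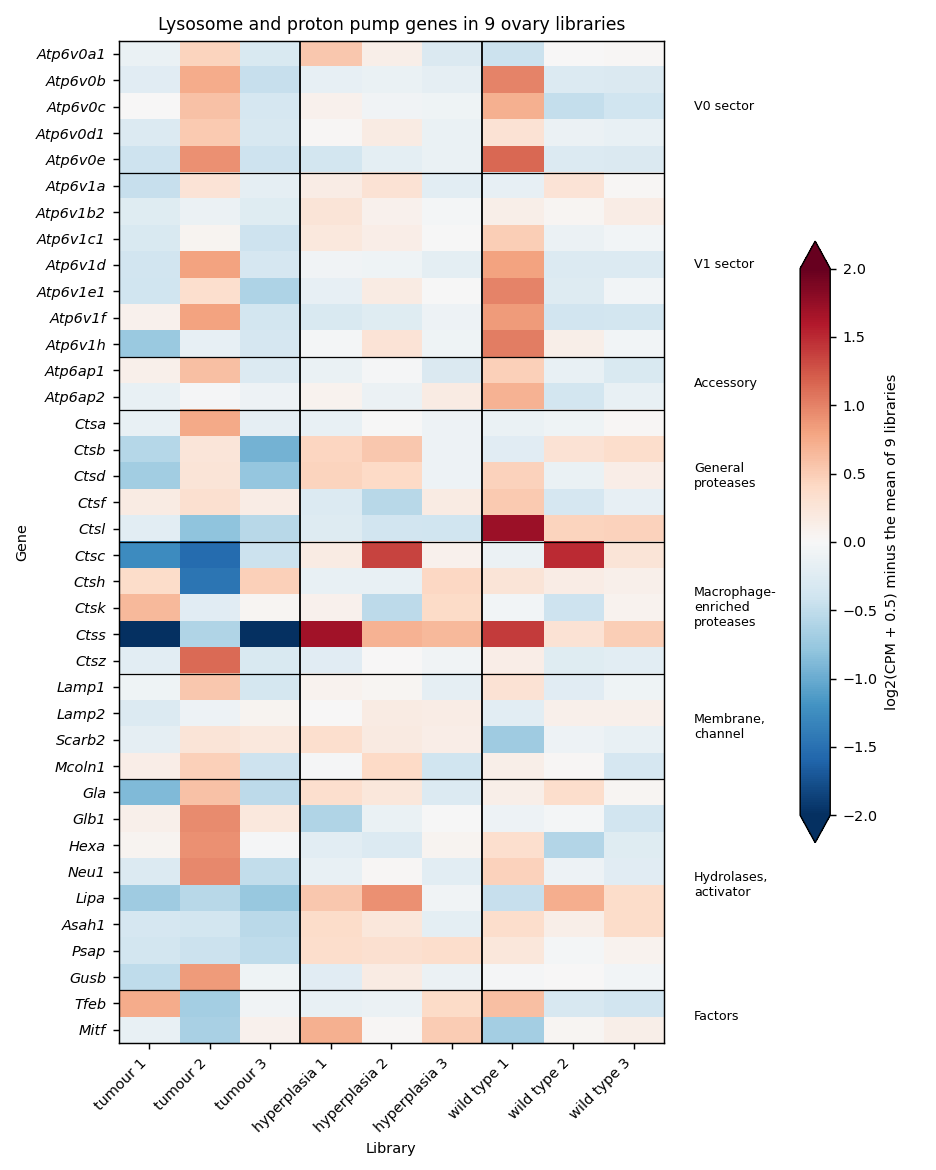
Level of each of the 38 genes in each library, as the difference of log2(CPM + 0.5) from that gene's mean over 9 libraries, with genes down the page by role and libraries across (tumour, hyperplasia, wild type). Ctss and Ctsc are low in the 3 tumour libraries, Ctsl is high in the 3 wild-type libraries, and many V-ATPase genes are high in tumour library 2 and wild-type library 1.

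Library totals ran from 11661820 to 20890487 counts, and each level is a CPM value (a gene's counts relative to its library's total after TMM scaling), for libraries 1, 2 and 3 of a group in turn. A library's deviation from the mean of the other 8 was negatively related to gene length most in wild-type library 1 (Spearman rho across genes -0.59) and next in tumour library 2 (-0.27), against 0.07 to 0.38 in the other 7. The V-ATPase genes had a median length of 1699 bases against 2462 over all tested genes, and the part of length in their values was not tested. Oocyte markers summed to 1.60 to 4.88 CPM in tumours, 3.83 to 90.8 CPM in hyperplasia, with library 3 the lowest, and 156 to 217 CPM in wild type. The 6 granulosa markers summed to 2805 to 3767 CPM in tumours, 767 to 3010 CPM in hyperplasia and 1320 to 3917 CPM in wild type. In tumours against wild type 3 of them were fitted higher (Foxl2, Fshr and Inha) and 3 lower (Amh, Fst and Inhba), none was called, and Fshr had 0 counts in tumour library 2.

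No gene of the set passed the test in any comparison (edgeR's quasi-likelihood test, p adjusted after Benjamini and Hochberg over all tested genes, threshold 0.05). In tumours against wild type 0 of 38 were called, where 1.6% of all tested genes were (0.352% higher and 1.25% lower). At an unadjusted p under 0.05 there were 1 higher and 6 lower genes, where 8.41% of all tested genes were higher, 11.7% lower and 20.1% either. DESeq2 called 5 of the 38 lower (Ctsl, Ctsc, Ctss, Asah1 and Psap), where it called 1747 of all 16213 tested genes in either direction. With limma-voom 1 was called (Ctss), where 271 of all tested genes were. The groups did not overlap for 9 of the 38 genes, with Glb1 higher and 8 lower, where 10.6% of all tested genes lay higher, 13.4% lower and 24.1% either. In bulk ovary RNA, fewer cells of a type and less RNA per cell cannot be told apart.

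In hyperplasia against wild type edgeR called 0 of 38, where 0% of all tested genes were called, and 1 gene (Ctsl, lower) had an unadjusted p under 0.05, where 1.41% of all tested genes were higher, 2.12% lower and 3.53% either. DESeq2 and limma-voom also called 0 of the 38, where DESeq2 called 18 of all 16213 tested genes. The groups were apart for Scarb2 and Psap (higher) and Ctsl (lower), where 4.63% of all tested genes lay higher, 5.18% lower and 9.81% either.

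In tumours against hyperplasia edgeR called 0 of 38, where 0.185% of all tested genes were called, and 1 higher and 5 lower genes had an unadjusted p under 0.05, where 4.71% of all tested genes were higher, 9.39% lower and 14.1% either. The groups were apart for 8 of the 38, with Glb1 higher and 7 lower, where 9.54% of all tested genes lay higher, 12.4% lower and 21.9% either. DESeq2 called 4 there (Ctsc, Ctss, Lipa and Psap, all lower) and limma-voom 0. Of all 16213 tested genes they called 816 and 4. The comparisons share libraries, so their values are given side by side and not counted as separate support.

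By its median gene, the set stayed close to the centre of the distribution. A sum gives most weight to abundant genes. The CPM of the set summed to 6753.5 to 9916 in tumours, 9372 to 10568 in hyperplasia and 9305 to 12332 in wild type. The length-scaled TPM summed to 5472 to 6264 in tumours, 7901 to 9392 in hyperplasia and 7674 to 8873.5 in wild type. On that scale each tumour library lay below every other library. The median log2 fold change over the 38 genes was -0.09 in tumours and -0.02 in hyperplasia, each against wild type, and -0.07 in tumours against hyperplasia, where all tested genes had medians of 0.01, 0.00 and 0.05. Fitted changes stayed within 1.2-fold for 19, 27 and 17 of the 38 genes in these comparisons (50%, 71.1% and 44.7%, against 34.2%, 53.3% and 38% of all tested genes). The 38 genes had 2204 (Mitf) to 358435 (Psap) counts over the 9 libraries, and these shares were not matched for abundance.

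**Figure D2:**
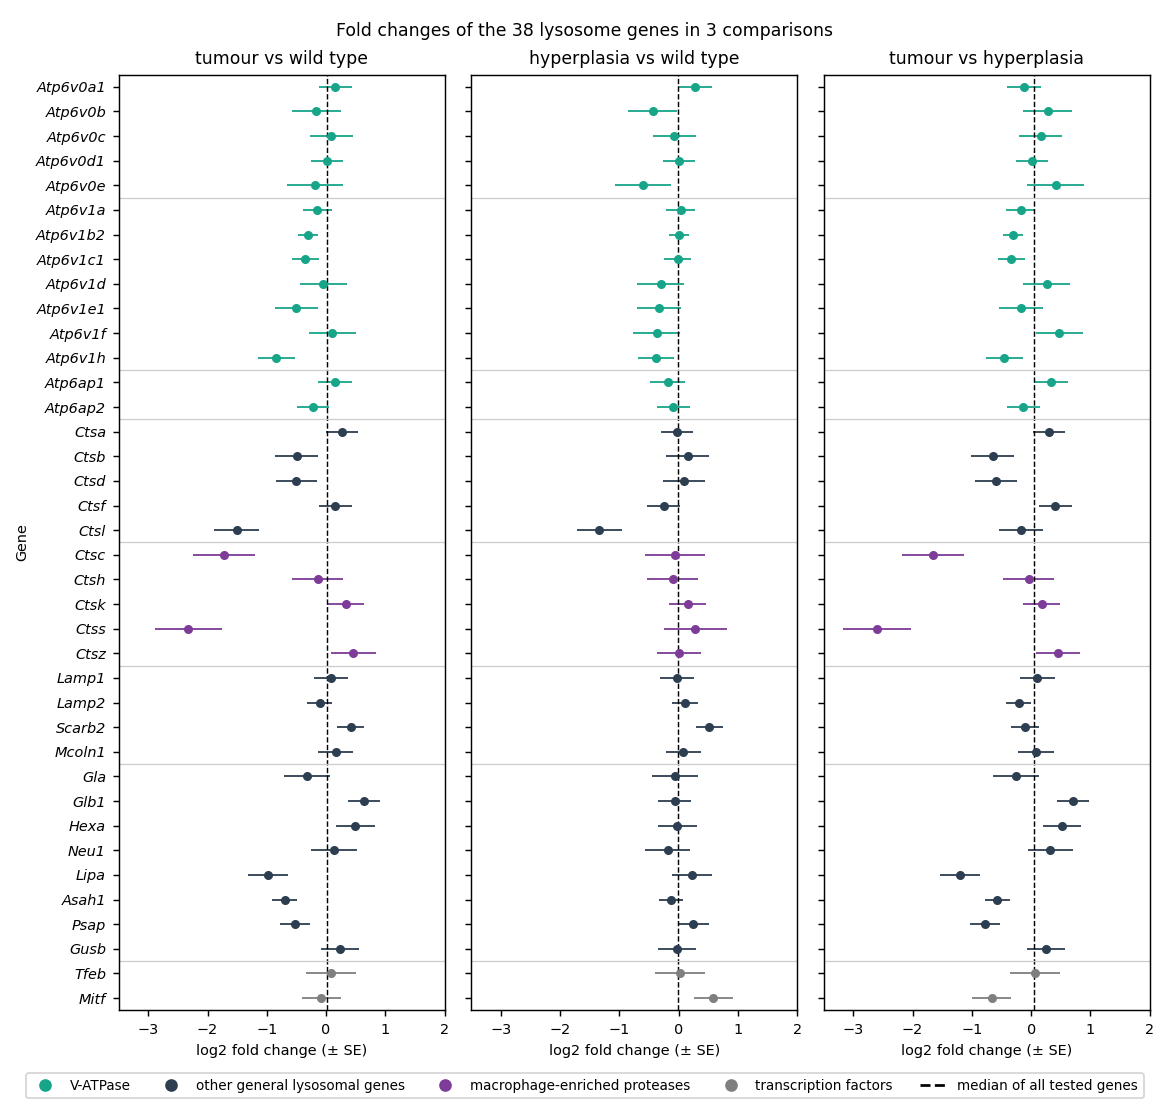
Fitted log2 fold change of each of the 38 genes in the 3 comparisons, coloured by role, with the median of all tested genes as a dashed line. Most points lie near the line, and Ctss is the lowest point in both comparisons of tumours.

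Of the 14 V-ATPase genes, 12 overlapped between tumours and wild type, and the 2 apart were in the V1 sector, where 24.1% of all tested genes were apart, so the count is no result about the pump. In the V0 sector, Atp6v0a1, the subunit through which protons pass together with the c ring, was at 78.8, 117 and 69.5 CPM in tumours, 125, 93.8 and 70.7 CPM in hyperplasia and 63.7, 86.9 and 87.7 CPM in wild type. Atp6v0b, a proteolipid subunit of the ring, was at 64.3, 127 and 54.7 CPM in tumours, 67.6, 68.8 and 66.4 CPM in hyperplasia and 151, 62.5 and 61.8 CPM in wild type. The groups overlapped for both genes, and tumour library 2 and wild-type library 1 held the highest Atp6v0b values. The 5 V0 genes had fitted log2 fold changes of -0.19 to 0.16 in tumours against wild type. Atp6v0c, the main ring subunit, has 2 named pseudogenes and shared reads in all 9 libraries, so its level is uncertain.

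In the V1 sector, Atp6v1h, a regulatory subunit, was at 50.5, 76.4 and 67.7 CPM in tumours, 83, 103 and 80.3 CPM in hyperplasia and 173, 92.4 and 82.2 CPM in wild type. Each tumour library was below every hyperplasia and wild-type library, and the log2 fold change against wild type was -0.84 ± 0.31 (SE, edgeR adjusted p = 0.174). Atp6v1b2, an ATP-binding subunit, was at 108, 118 and 108 CPM in tumours, 153, 136 and 125 CPM in hyperplasia and 139, 131 and 142 CPM in wild type. Its tumour libraries also lay below the rest, with a smaller difference (log2 fold change -0.30 ± 0.17, adjusted p = 0.366). Over the 7 V1 genes the median was -0.30 in tumours and -0.30 in hyperplasia, each against wild type. Both medians include wild-type library 1, where the V1 genes summed to 971 CPM, against 625 and 620 CPM in wild-type libraries 2 and 3. The sums were 602 to 698 CPM in hyperplasia and 503 to 779 CPM in tumours. Atp6v1h overlaps Rgs20 and Atp6v1b2 overlaps Slc18a1 on the opposite strand and no label or header used here states whether counting used strand.

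The accessory subunits Atp6ap1 and Atp6ap2, which help assemble the pump, overlapped between groups. Atp6ap2 was at 84, 90.9 and 86.4 CPM in tumours, 97.4, 85.4 and 104 CPM in hyperplasia and 150.0, 71.6 and 83.6 CPM in wild type. Atp6ap1 was at 201, 286 and 156 CPM in tumours, 172, 184 and 154 CPM in hyperplasia and 261, 169 and 152 CPM in wild type. Summed over the 14 pump genes, the level was 1154 to 1965 CPM in tumours, 1332 to 1480 CPM in hyperplasia and 1293 to 2194 CPM in wild type. The highest sum of the tumour group was in tumour library 2 and that of the wild-type group in wild-type library 1, and the part of gene length in this was not tested.

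Among pump genes outside the 38, Atp6v0d2 (chr4:19876841-19922605, GRCm38), an alternative d subunit known from mouse osteoclasts and macrophages, fell in tumours. It was at 0.132, 0.683 and 0.504 CPM in tumours, 67.9, 31.4 and 28.3 CPM in hyperplasia and 23.5, 21.4 and 33.7 CPM in wild type, from 15 counts summed over the tumours, 2293 over hyperplasia and 1421 over wild type. The tumour libraries stood far below all others, with a log2 fold change of -5.94 ± 0.60 against wild type (edgeR adjusted p = 0.0185) and -6.64 ± 0.61 against hyperplasia (adjusted p = 0.011). The broadly expressed d subunit Atp6v0d1 was at 62.9, 110.4 and 61.3 CPM in tumours, 77.7, 85.4 and 69.3 CPM in hyperplasia and 93, 70.1 and 68.8 CPM in wild type, with overlapping groups and a log2 fold change of 0.02 ± 0.27. Of the deposited TPM of both d subunits, Atp6v0d2 took 0.323% ± 0.189 in tumours, 23.8% ± 9.08 in hyperplasia and 17% ± 4.83 in wild type (SD, n = 3 each).

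The call of Atp6v0d2 against wild type was lost without tumour library 1 (adjusted p = 0.0643), tumour library 3 (0.0947) or wild-type library 3 (0.0529), while the log2 fold change stayed between -6.09 and -5.45. It was also lost with a term for the title stem (0.0523) or the title prefix (0.189), and without both wild-type library 1 and tumour library 2 (0.0546). Against hyperplasia the call was lost without tumour library 3 (0.0902), without both of those libraries (0.0658), with only the 2 groups fitted (0.0705) and with limma-voom (0.0687). Of 11 other pump genes 7 were tested, and Atp6v0d2 was the 1 called, lower, in each comparison of tumours. Of all tested genes, 1.25% were called lower against wild type and 0.185% against hyperplasia. Atp6v1g2 and Tcirg1, the next by p-value, had log2 fold changes of 0.95 (adjusted p = 0.277) and -0.27 (adjusted p = 0.543) against wild type.

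**Figure D3:**
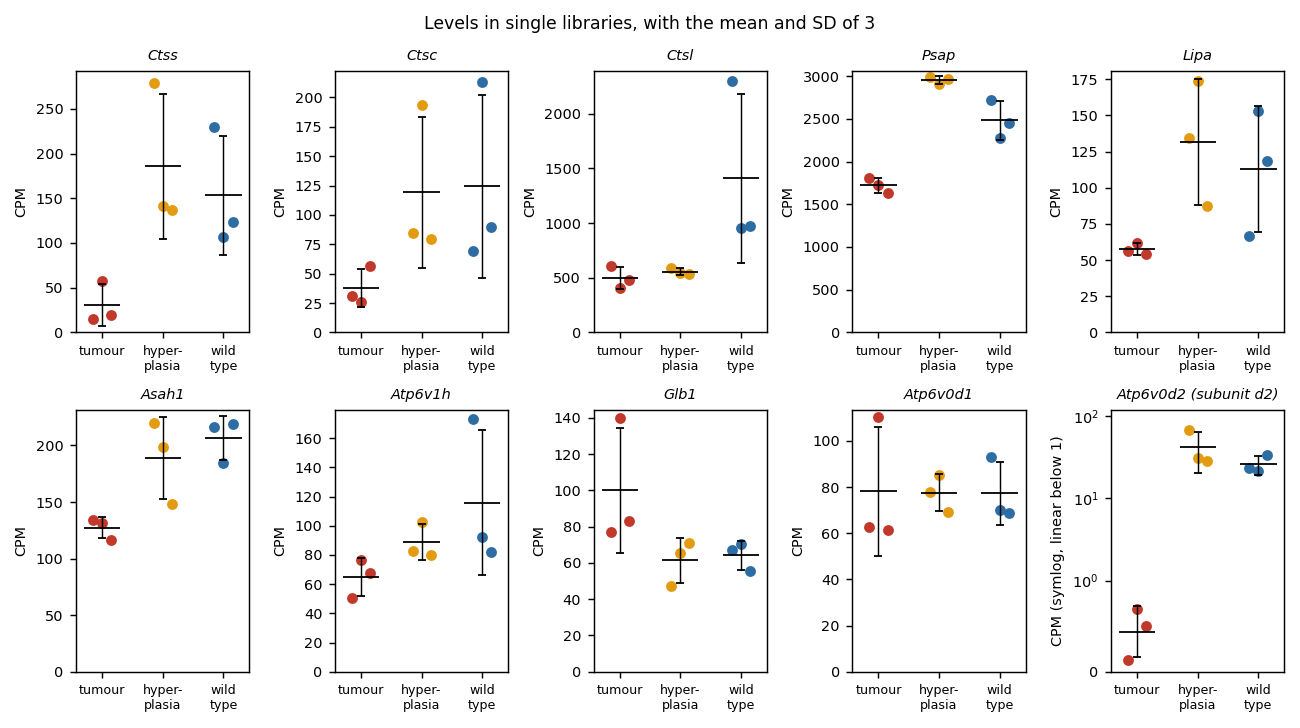
CPM of 10 genes in each library (points), with the mean (bar) and SD of the 3 libraries of each group (tumour, hyperplasia, wild type from left to right); the axis of Atp6v0d2 is a symmetric log scale. The Atp6v0d2 points lie under 1 CPM in the 3 tumour libraries, whereas the Atp6v0d1 points of the 3 groups overlap.

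The general proteases included 3 of the 4 highest levels of the set on the length-scaled TPM. Ctsl (chr13:64359337-64370890, GRCm38), an endopeptidase that also acts outside lysosomes, was at 606, 404 and 477 CPM in tumours, 591, 543 and 536 CPM in hyperplasia and 2299.5, 958 and 969.6 CPM in wild type. All mutant libraries lay below all wild-type libraries, and wild-type library 1 held the highest value. Ctsl had non-whole counts in 7 libraries and overlaps Gm47123 and Gm49230, so its level is uncertain. The log2 fold change was -1.51 ± 0.38 in tumours (adjusted p = 0.0747) and -1.34 ± 0.38 in hyperplasia (adjusted p = 0.999), each against wild type. Ctsd, the main aspartic protease, was at 565, 1102 and 538 CPM in tumours, 1257, 1209.6 and 854 CPM in hyperplasia and 1268, 839.9 and 1013 CPM in wild type. Its groups overlapped through tumour library 2. The mean TPM over 9 libraries was 914.5 for Ctsl, 757.7 for Ctsd and 628.8 for Ctsb, below 1480 for Psap.

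The 5 macrophage-enriched proteases had different patterns. Ctss (chr3:95526786-95556403, GRCm38), which trims the invariant chain during antigen presentation, was at 15.2, 57.1 and 19.5 CPM in tumours, 279, 141 and 137 CPM in hyperplasia and 229.8, 107 and 123 CPM in wild type. All tumour libraries lay below all others, with a log2 fold change of -2.33 ± 0.56 against wild type (edgeR adjusted p = 0.0693) and -2.60 ± 0.57 against hyperplasia (adjusted p = 0.101). Ctsc (chr7:88278085-88310888), which activates the serine proteases of immune cells, was at 31.3, 25.6 and 56.2 CPM in tumours, 84.7, 193 and 79.9 CPM in hyperplasia and 69.6, 213 and 90.1 CPM in wild type. Its tumour libraries also lay below the rest (log2 fold change -1.72 ± 0.53 against wild type, adjusted p = 0.119). Without tumour library 2, Ctss passed the threshold against wild type (log2 fold change -3.14, edgeR adjusted p = 0.0488). It did not pass with any other single library left out. With a term for the title stem or the title prefix, its adjusted p was 0.139 or 0.386. Ctss overlaps the pseudogene Hmgb1-ps5 on its own strand and Ctsc overlaps Gm26522 on the other, and both genes had whole counts in every library.

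The other 3 overlapped between groups. Ctsk, the collagen-degrading protease of osteoclasts, was at 44.8, 24.2 and 29.4 CPM in tumours, 30.3, 19.6 and 37.2 CPM in hyperplasia and 27.3, 21.3 and 29.8 CPM in wild type. Ctsh and Ctsz, both exopeptidases, had log2 fold changes of -0.14 and 0.46 in tumours against wild type. The median of the 5 was -0.14, and that of the 31 general genes -0.11. In hyperplasia against wild type the medians were 0.01 and -0.03, and in tumours against hyperplasia -0.04 and -0.11. The median of 5 was that of its middle gene, Ctsh, and depends on single genes. Without Ctsk, which was fitted higher, it was -0.93 in tumours against wild type and -0.85 against hyperplasia. Leaving out Ctss or Ctsc, the lowest of the 5, was not tried. Without hyperplasia library 3 the median over all 5 against hyperplasia was 0.18. The median of the general genes also changed sign in tumours against wild type: it was 0.17 without wild-type library 1, 0.04 without tumour library 1, 0.06 without tumour library 3 and 0.05 without Ctsb, Ctsd, Ctsl, Lipa and Psap, which macrophages also express strongly. Against hyperplasia it was 0.02 without tumour library 1, 0.03 without tumour library 3, 0.01 without hyperplasia library 1 and 0.09 without those 5 genes. Without tumour library 2 the general median in tumours against wild type was -0.35 and that of the macrophage-enriched proteases -0.16, the opposite order to that over all libraries.

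Markers listed for macrophages, some of which other leukocytes also express (Ptprc and Itgam among them), were also lower in the tumours. Of 16 such markers 2 (Itgam and Ptprc) fell in tumours against wild type, and 14 were lower at an unadjusted p under 0.05. Cd14 was the 1 fitted higher (log2 fold change 0.20), and the median over the 16 was -1.41. The 16 summed to 241 to 686 CPM in tumours, 842 to 1347 CPM in hyperplasia and 976 to 1267 CPM in wild type. Among the tumours, tumour library 2 had the highest sum of these markers and the highest Ctss, but the lowest Ctsc (25.6 CPM) and the lowest Ctsh (27.3 CPM). Of 8 markers of lipid-laden and giant cell macrophages, a list that holds Atp6v0d2 itself, 5 fell, with sums of 13.0 to 25.9 CPM in tumours, 461 to 1502 CPM in hyperplasia and 383 to 499 CPM in wild type. No marker of either list was at 0 in a whole group. Of 8 luteal markers 3 fell, with sums of 1348 to 3034 CPM in tumours, 5571 to 12927 CPM in hyperplasia and 7781 to 23496 CPM in wild type. Of all tested genes, 1.25% were called lower in tumours against wild type, and 11.7% were lower at an unadjusted p under 0.05. With a term for the title stem or prefix, 0 genes were called there, so these marker calls were lost. The same held without tumour library 3 or without wild-type library 3. The part of these cell types in the lysosomal values was not tested.

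**Figure D4:**
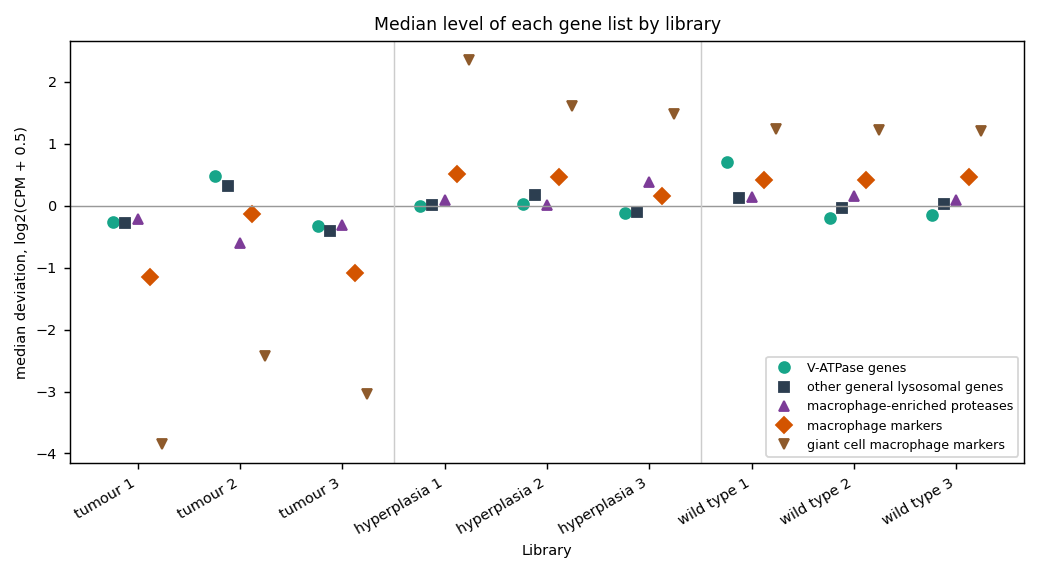
Median over each gene list of the deviation of log2(CPM + 0.5) from each gene's mean over 9 libraries, by library (tumour, hyperplasia, wild type). The giant cell macrophage list lies between -3.85 and -2.43 in tumours and above 1 elsewhere, while the V-ATPase list is highest in wild-type library 1 (0.70) and tumour library 2 (0.49).

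The membrane proteins overlapped between tumours and wild type. Scarb2, which carries glucocerebrosidase to lysosomes, was at 173, 235 and 227 CPM in tumours, 248, 222 and 213 CPM in hyperplasia and 119, 182 and 177 CPM in wild type. The hyperplasia libraries lay above all wild-type libraries (log2 fold change 0.52 ± 0.23, adjusted p = 0.999). Mcoln1, the calcium channel of the lysosome, was at 31.8, 40.4 and 21.6 CPM in tumours, 28.5, 38.5 and 21.9 CPM in hyperplasia and 31.6, 29.5 and 22.9 CPM in wild type, with overlapping groups. Lamp1 and Lamp2, the main structural proteins of the membrane, had log2 fold changes of 0.08 and -0.11 in tumours against wild type.

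The lipid-handling hydrolases lay lower in tumours, short of the threshold. Asah1, the acid ceramidase, was at 134, 131 and 117 CPM in tumours, 219.5, 199 and 148 CPM in hyperplasia and 216, 184 and 219 CPM in wild type. Lipa, which frees cholesterol from its esters, was at 56, 62.1 and 54.1 CPM in tumours, 134, 174 and 87.1 CPM in hyperplasia and 66.8, 153 and 119 CPM in wild type. Tumour libraries were below all others for both genes, and the log2 fold changes against wild type were -0.70 ± 0.21 for Asah1 (adjusted p = 0.114) and -0.97 ± 0.34 for Lipa (adjusted p = 0.153). Psap, the precursor of the saposins that present sphingolipids to their hydrolases, was at 1808, 1730.2 and 1635 CPM in tumours, 2985, 2905 and 2972 CPM in hyperplasia and 2722, 2275 and 2454 CPM in wild type. The 3 groups did not overlap, with tumours lowest and hyperplasia highest (log2 fold change -0.53 ± 0.25 in tumours against wild type, adjusted p = 0.286, and -0.78 ± 0.25 against hyperplasia, adjusted p = 0.239).

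Of the 5 glycosidases, Gla was fitted lower and the other 4 higher in tumours against wild type, and none was called. Glb1, the lysosomal beta-galactosidase, was at 77.1, 139.8 and 83.1 CPM in tumours, 47.3, 65.7 and 71.2 CPM in hyperplasia and 67.2, 70.4 and 55.3 CPM in wild type. Tumour libraries lay above all others (log2 fold change 0.64 ± 0.28 against wild type, adjusted p = 0.238), and Glb1 shares an overlap on its own strand with Tmppe and had non-whole counts in 9 libraries. Gla, Hexa, Neu1 and Gusb, which remove other sugars, had log2 fold changes of -0.32, 0.49, 0.13 and 0.23, and none had groups apart.

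Of 42 other lysosomal genes, all tested, 1 rose in tumours against wild type, where 0.352% of all tested genes were called higher. In the other comparisons edgeR called 0 of the 42. At an unadjusted p under 0.05 there were 7 higher and 5 lower in tumours against wild type (8.41% and 11.7% of all tested genes). There were 1 higher and 0 lower in hyperplasia against wild type (1.41% and 2.12%), and 4 higher and 3 lower in tumours against hyperplasia (4.71% and 9.39%). The gene that rose was Sort1 (chr3:108284082-108361511), a sorting receptor for lysosomal proteins, at 153, 378 and 129 CPM in tumours, 116, 96.4 and 90.3 CPM in hyperplasia and 21.5, 41 and 47 CPM in wild type. The 3 groups did not overlap, and the log2 fold change was 2.59 ± 0.46 (edgeR adjusted p = 0.0404). That call was lost in 11 alternatives, among them the omission of any tumour or wild-type library (adjusted p = 0.0504 to 0.117). The log2 fold change was 1.95 without tumour library 2 and 1.65 without both that library and wild-type library 1. Idua, a glycosaminoglycan hydrolase, and Gm2a, the activator of ganglioside breakdown, had log2 fold changes of 1.3 (adjusted p = 0.0539) and -1.94 (adjusted p = 0.061).

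The transcription factors had low levels. Mitf was at 12.7, 8.78 and 14.9 CPM in tumours, 23.3, 14.3 and 20.3 CPM in hyperplasia and 8.65, 14.6 and 15.3 CPM in wild type. Tfeb was at 28.1, 10.2 and 15.8 CPM in tumours, 15, 15.3 and 21.9 CPM in hyperplasia and 25.5, 13.2 and 12.7 CPM in wild type. The groups overlapped for both, with log2 fold changes of -0.08 ± 0.33 and 0.08 ± 0.42 in tumours against wild type. The RNA level does not report the activity of these factors, which is set largely by their location in the cell.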

How the data were processed

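RNA was measured by stranded TruSeq mRNA sequencing of 9 mouse ovary libraries, 3 a group. RSEM 1.3.1, STAR 2.7.1a, Picard 2.8.1, FastQC and the build GRCm38 are listed, with no order, per the submitters' processing notes. Per the file headers, the authors deposited for each library the expected counts of RSEM, which are not scaled to depth, and TPM values scaled for gene length and depth. The FPKM values and gene lengths deposited beside them entered no test, except that lengths were used for the length trend.

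The expected counts, once rounded, were tested with edgeR 4.0.16 (R 4.3.3). The test used TMM scaling, filterByExpr (minimum count 10, minimum total 15), 1 quasi-likelihood fit of the 3 groups, and Benjamini-Hochberg adjustment over 16213 genes at 0.05. Standard errors were derived from the log2 fold change and its F statistic, and CPM are scaled by TMM. The smallest chi-square per degree of freedom between 2 libraries was 27.16, above sampling noise, so each was counted once.

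Values in every library are given for the 2 genes of each role with the smallest p in tumours against wild type, and for the other lysosome and pump genes those called and the 3 with the smallest p are named. Ctsk, Psap, Glb1 and Atp6v0d1 were added after their values were seen. The 38 genes and the lists were chosen with earlier results of these data known. Alternatives were DESeq2 1.42.0, its size factors, limma 3.58.1 (voom, and log2(TPM + 1)), no filter, only 2 groups, terms for the title stem or prefix, removal of the length trend, and leaving out libraries. The fits were tested on simulated data.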

Additional observations from a re-analysis of the deposited data

How the results depend on the processing

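The number of genes called in tumours against wild type was 259, and it was 1747 with DESeq2, 721 without the filter, 428 with limma on log2(TPM + 1), 419 with the length trend removed, 0 with the term for the title stem, 0 with that for the prefix, 8 without wild-type library 1 and tumour library 2, and 0 to 404 with 1 library left out. For hyperplasia against wild type it was 0, and 18, 2 and 1 with DESeq2, no filter and TPM, 3 with only 2 groups, 2 without both libraries, and 0 to 3 with 1 left out. For tumours against hyperplasia it was 30, and 816, 199 and 76 with these tools, 4 with voom, 1 with only 2 groups, 12 and 5 with the stem and prefix terms, 0 without both libraries, and 0 to 128 with 1 left out. Of the 38, tumours against wild type gave 5 calls with DESeq2, 2 without the filter (Ctsl and Ctss), and 1 with voom, TPM, the length trend removed or tumour library 2 left out (range 0 to 1). Against hyperplasia DESeq2 gave 4, no filter 1 and TPM 1 (Ctss). The median of the macrophage-enriched proteases, -0.14 in tumours against wild type, was -0.36 with voom, -0.60 with TPM, -0.41 with the stem term, -0.93 without Ctsk, -0.51 with 5 broader genes, and -0.438 to -0.099 with 1 library left out. Against hyperplasia it was -0.04, and -0.24 with voom, -0.58 with TPM, -0.85 without Ctsk, -0.62 with the broader genes, and -0.34 to 0.18 with 1 left out. In hyperplasia against wild type TPM gave 0.18. The causes were not tested. No fit with the replicate number as a block was made, since the labels number no replicates. The terms for the title stem and prefix, given above, were the blocks that the titles allow. With 3 libraries a group and a biological coefficient of variation of 0.432, differences near the spread could not be detected.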
